A study of Homo sapiens with 60 samples.

Results

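The EGFR locus was described from every deposited CUT&RUN peak that overlapped chromosome 7 from 54900000 to 55450000 on GRCh37, a window of 550 kb. EGFR lies inside it, from 55086725 to 55275031, on the plus strand. The window held 615 of the 507516 peaks in the 24 lists: 384 of H3K27Ac, 108 of RAD21, 95 of PDS5A and 28 of IgG. Membership used position alone and no measured value. Each list joined 2 replicates of 1 antibody, genotype and treatment, so 48 samples stood behind the 24 lists. CUT&RUN releases and sequences the DNA fragments that lie around an antibody bound to chromatin.

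The cells were PC9, a human lung adenocarcinoma line with an activating EGFR mutation. The 6 conditions were treated Rescue, treated KO, treated WT, untreated Rescue, untreated KO and untreated WT. WT is the parental line, KO lacks METTL7A, and Rescue is the KO line made to overexpress METTL7A-MYC-tag_FLAG, so Rescue and KO share the deletion. Treated cells had received osimertinib, an inhibitor of mutant EGFR, for 6 to 8 weeks at a dose raised from 100 nM. No source says whether the KO is 1 clone, or that the 2 replicates came from separate cultures. The 12 samples of the antibody to H2A, among 60 in all, are not analysed here. The peak lists do not measure METTL7A, read depth or DNA copy number, and none of the values below is a level of EGFR RNA or protein.

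EGFR is a receptor tyrosine kinase that binds EGF-family ligands, dimerises and signals through the RAS-MAPK and PI3K-AKT pathways. Lung tumours with activating EGFR mutations depend on it, which is why osimertinib is given. H3K27Ac marks active promoters and enhancers. RAD21 is a core subunit of cohesin, the ring complex that extrudes chromatin loops and often stops at sites bound by CTCF. PDS5A binds cohesin and regulates its release from chromatin. IgG binds no chosen target and shows the background of the assay.

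The promoter is shown because the gene start carried peaks of all 3 antibodies. RefSeq gives the 250 bases before the first annotated EGFR start, at chr7:55018767-55019016 on GRCh38.p14, plus strand, 5′ to 3′; this build differs from that of the peaks, and no coordinate was converted. Capitals mark the GC box GGGCGG or its reverse complement CCGCCC, and the CT repeat TCCTCC or its reverse complement GGAGGA.
EGFR: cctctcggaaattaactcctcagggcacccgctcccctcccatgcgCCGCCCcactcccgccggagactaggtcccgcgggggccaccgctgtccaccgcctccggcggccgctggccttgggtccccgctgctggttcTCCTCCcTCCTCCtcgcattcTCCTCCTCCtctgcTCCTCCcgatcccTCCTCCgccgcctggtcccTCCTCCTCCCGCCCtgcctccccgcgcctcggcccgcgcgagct

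This stretch was 73.6% G or C, against a median of 58% over 35116 RefSeq promoters of the same length. The GC box matched 2 times and occurred in 42.6% of all promoters, and the CT repeat matched 8 times, overlaps counted, and occurred in 31.8%. The last CT repeat shares 1 letter with the second GC box match. Neither TGACTCA, the AP-1 motif, nor TATAAA was found on either strand; they occurred in 4.2% and 10.7% of promoters. The 250 bases before a second annotated EGFR start, at chr7:55109589-55109838 on the same build and strand, differed on each count: they were 38.8% G or C, with 0 matches of the GC box, 0 of the CT repeat, 2 of TGACTCA and 2 of TATAAA. In the RefSeq order of GRCh38.p14 the nearest protein-coding genes are SEC61G before EGFR and LANCL2 after it.

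H3K27Ac peaks lay mostly inside the gene, whereas the cohesin peaks were more evenly spread (the map of peaks by distance from the gene start). The gene body makes up 34.2% of the window and held 302 of the 384 H3K27Ac peaks (78.6%), 49 of the 108 RAD21 peaks (45.4%), 41 of the 95 PDS5A peaks (43.2%) and 15 of the 28 IgG peaks (53.6%). Before the gene start there were 51 H3K27Ac, 34 RAD21, 26 PDS5A and 4 IgG peaks, and past the gene end 31, 25, 28 and 9. Peak widths ran from 255 to 8233 bases in H3K27Ac (median 926), from 232 to 4764 in RAD21 (median 848) and from 307 to 4482 in PDS5A (median 957). Whether a peak was exonic or intronic was not assigned here.

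**Figure D1:**
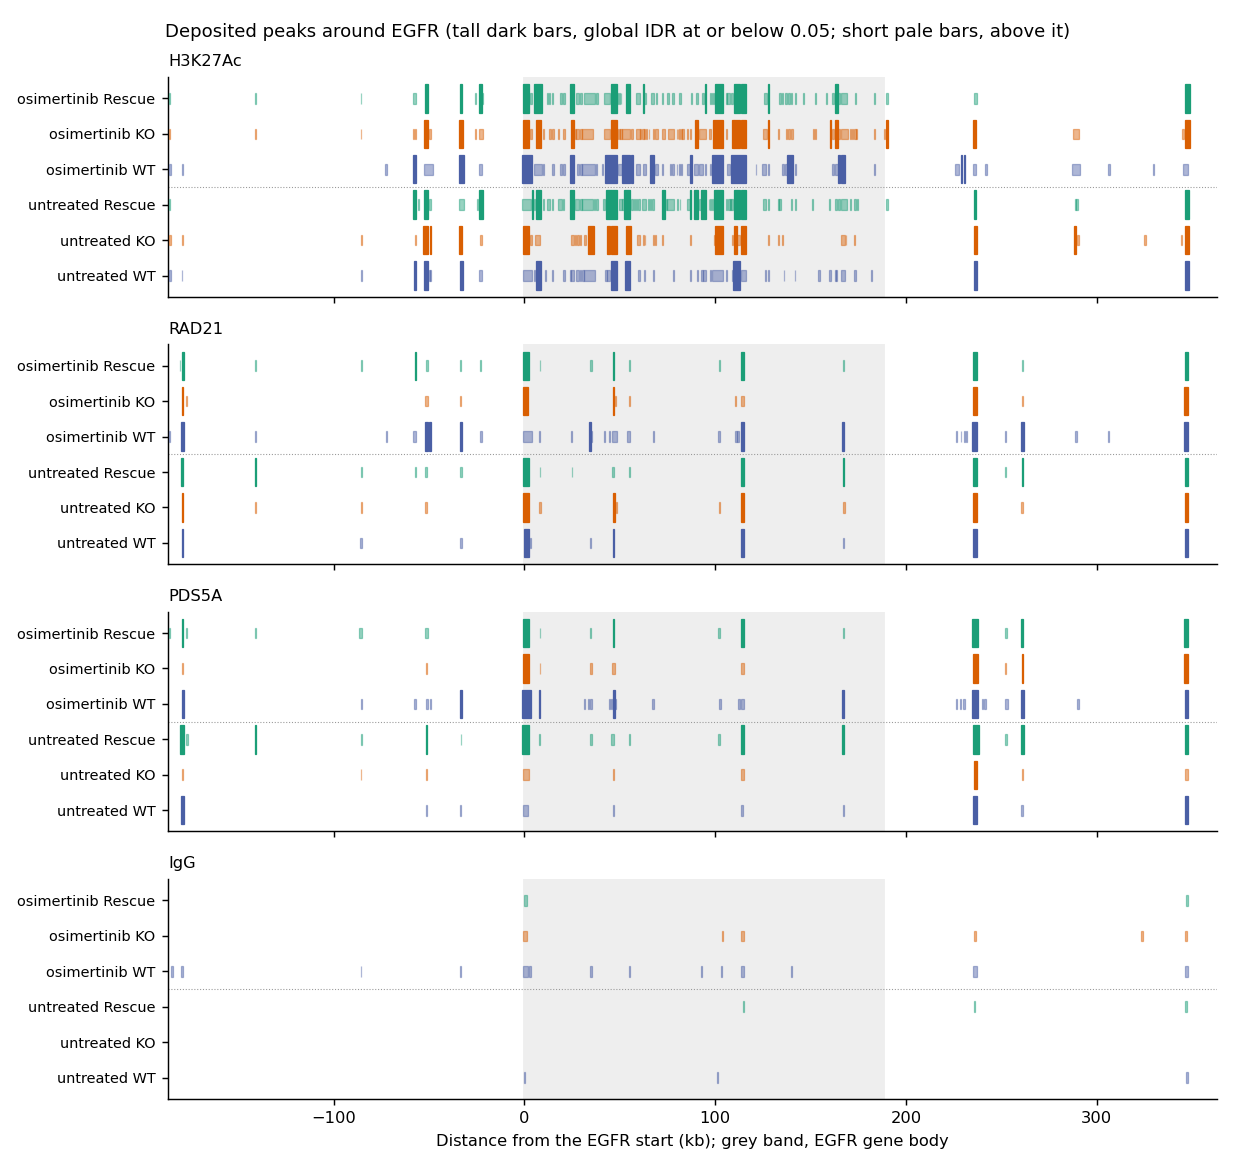
Every peak of the EGFR window, by distance from the gene start (kb, x axis) and list (rows), with treated lists above untreated ones and the gene body in grey. Tall dark bars met a global IDR limit of 0.05 and short pale bars did not; H3K27Ac peaks crowd the gene body, and RAD21 and PDS5A peaks recur at a few fixed places.

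The global IDR (irreproducible discovery rate) is low for a peak that stands high in both replicates and high for one that does not. A limit of 0.05 was met by 89 H3K27Ac, 42 RAD21, 33 PDS5A and 0 IgG peaks of the window. For H3K27Ac the numbers were 16 of 70, 17 of 79 and 16 of 63 in treated Rescue, KO and WT cells, and 17 of 75, 14 of 45 and 9 of 52 in untreated Rescue, KO and WT cells. Over the whole lists 29.3%, 21.7%, 23.1%, 36.6%, 23.2% and 22.6% met it, in the same order. The window's shares, 22.9%, 21.5%, 25.4%, 22.7%, 31.1% and 17.3%, therefore lay on both sides of the shares of the lists.

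For RAD21, 7 of 19, 5 of 13 and 10 of 34 peaks met the limit in treated Rescue, KO and WT cells, and 8 of 17, 6 of 14 and 6 of 11 in untreated Rescue, KO and WT cells. The whole RAD21 lists had 42.2%, 24.7%, 42.9%, 37.2%, 28.2% and 23.8%. For PDS5A the numbers were 7 of 17, 4 of 11 and 9 of 30 in treated Rescue, KO and WT cells, and 9 of 18, 1 of 9 and 3 of 10 in untreated Rescue, KO and WT cells, against 42.2%, 22.3%, 36.1%, 41.8%, 9.87% and 12.2% of the lists. No IgG peak of the window met it, against 3.68%, 1.22%, 4.11%, 1.05%, 4.19% and 0.946% of the IgG lists. The members nearest the limit had an IDR of 0.0493 inside and 0.0525 outside it with H3K27Ac, 0.0418 and 0.0615 with RAD21, and 0.0499 and 0.0555 with PDS5A. The IgG peak nearest to it had 0.0543.

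Overlapping peaks of the 6 lists of an antibody were merged into regions. H3K27Ac had 91 regions, of which 23 held a peak in all 6 lists and 31 held one with an IDR of 0.05 or less in at least 1 list. RAD21 had 36 regions, with 6 in all 6 lists and 14 with such a peak. PDS5A had 33 regions, with 8 in all 6 lists and 12 with such a peak. IgG had 16 regions, and 0 of them were in all 6 lists. Joined together, the RAD21 and PDS5A regions present in all 6 lists of either antibody gave 8 sites, described next. Positions are distances from the gene start, and a rank is the place of a peak in its list, with 1 the strongest, ordered by the weaker of the 2 replicate values of −log10 p.

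The strongest cohesin site of the window lay past the gene, at chr7:55321421-55325140, 237 kb from the gene start. It met the IDR limit in all 12 cohesin lists. Its RAD21 values for the 2 replicates were 221 and 102 in treated Rescue cells, 79.1 and 115 in treated KO cells, 216 and 96.6 in treated WT cells, 283 and 138 in untreated Rescue cells, 137 and 83.1 in untreated KO cells and 215 and 35.2 in untreated WT cells. These gave ranks of 128, 15, 267, 46, 53 and 144 in lists of 15525 to 38830 peaks, so the site stayed within the top 0.928% of every RAD21 list.

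PDS5A was also prominent there. Its values were 347 and 162, 61.2 and 192, and 241 and 109 in treated Rescue, KO and WT cells, and 234 and 267, 41 and 107, and 51.8 and 113 in untreated Rescue, KO and WT cells. The ranks were 30, 26, 94, 9, 14 and 63, within the top 0.438% of every PDS5A list. It was the highest-ranked peak of the window in all 6 RAD21 and all 6 PDS5A lists.

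The same site carried an H3K27Ac peak in 6 of 6 lists, of which 4 met the IDR limit. Their ranks were 36923, 2321 and 14883 in treated Rescue, KO and WT cells, and 6252, 1919 and 4705 in untreated Rescue, KO and WT cells, so the mark ranked far lower there than cohesin did. An IgG peak lay on the site in 3 lists, with values of 6.48 and 7.11 in treated KO cells, 11.4 and 11.1 in treated WT cells, and 6.66 and 11.8 in untreated Rescue cells. The part of this background in the cohesin values was not tested. The other 3 IgG lists, of 896, 167 and 1057 peaks, had no peak there.

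**Figure D2:**
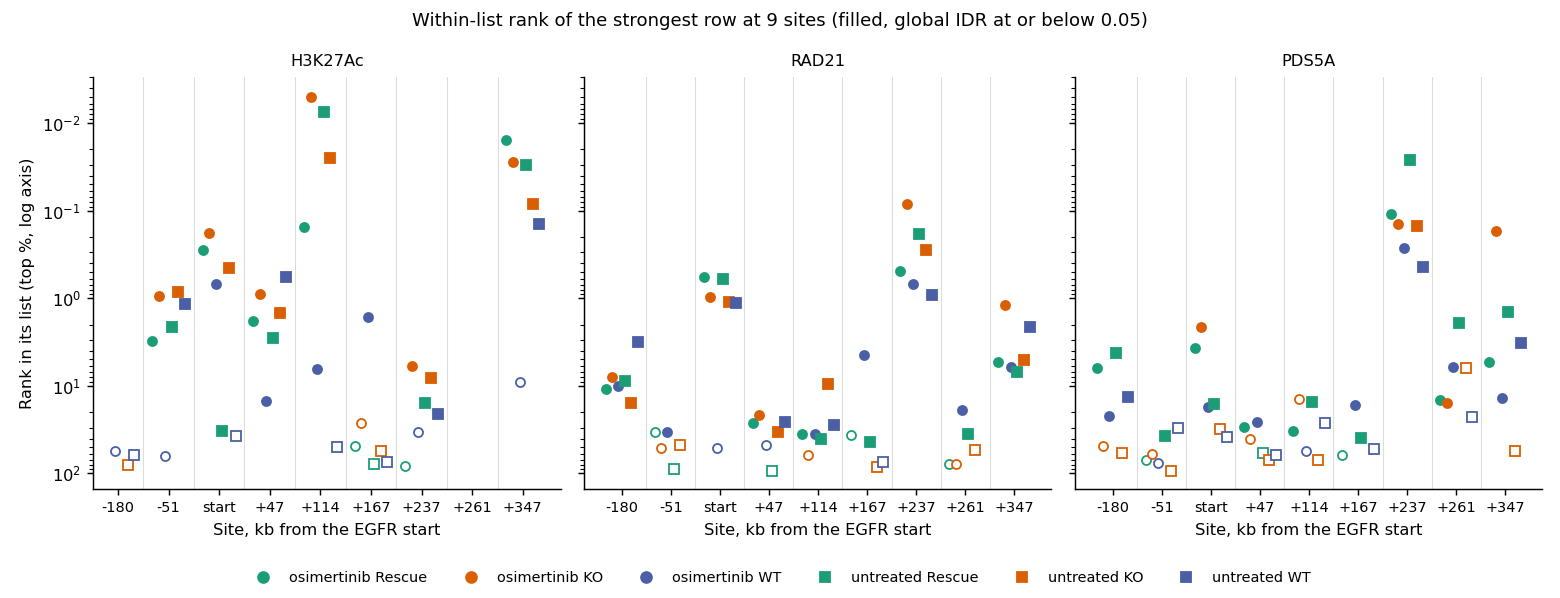
Rank of the strongest peak at each of 9 sites in its own list, as the top percentage of the list (log axis, stronger upward), for H3K27Ac, RAD21 and PDS5A; x gives the distance of the site from the gene start in kb, circles are treated and squares untreated lists, and filled symbols have a global IDR of 0.05 or less. RAD21 and PDS5A are highest at +237 kb, and H3K27Ac at +114 and +347 kb in most lists.

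At the gene start, chr7:55085610-55090987, all 3 antibodies had peaks in 6 of 6 lists. RAD21 values were 137 and 97.1, 42.3 and 64.7, and 91.5 and 10.2 in treated Rescue, KO and WT cells, and 93.1 and 93.8, 65.1 and 53.5, and 112 and 32.6 in untreated Rescue, KO and WT cells. The ranks were 149, 170, 20110, 151, 211 and 176. The treated WT list thus stood apart: its peak, 4764 bases wide, had an IDR of 0.271, and its first replicate value alone would rank 1488 while its second would rank 21713. The other 5 lists placed the start within the top 1.13%.

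H3K27Ac at the gene start had values of 86.1 and 80.4, 53.7 and 60.5, and 34.5 and 61.6 in treated Rescue, KO and WT cells, and 12 and 76.8, 65.6 and 47.3, and 70.8 and 9.11 in untreated Rescue, KO and WT cells. The ranks were 128, 71, 308, 13210, 106 and 8540. Untreated Rescue cells had a second peak in the region, chr7:55090507-55090987, which met the IDR limit, with values of 12.4 and 15.3 and a rank of 12936. That peak is the one shown for untreated Rescue cells in the figure of site ranks. Of the peaks over the gene start itself, those of untreated Rescue and untreated WT cells were the pair over the IDR limit, at 0.359 and 0.446. In each of them 1 replicate was strong, with a rank of 163 by the second value in untreated Rescue cells and 85 by the first value in untreated WT cells. The summits of the 2 replicates lay 937 and 797 bases apart in these peaks, against 28 to 621 bases in the other 4 lists.

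PDS5A at the start had ranks of 999, 387 and 6104 in treated Rescue, KO and WT cells, and 5427, 2905 and 5601 in untreated Rescue, KO and WT cells. The 3 treated peaks and the untreated Rescue peak met the IDR limit, and those of untreated KO and untreated WT cells had 0.174 and 0.185. IgG had a peak over the start in 4 lists, with values of 9.61 and 7.71, 8.83 and 11.8, and 8.51 and 8.87 in treated Rescue, KO and WT cells, and 5.75 and 9.1 in untreated WT cells. These ranked in the top 3.59% to 10.4% of their lists, and none met the IDR limit. The part of this background in the peaks at the gene start was not tested.

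In all lists but that of treated WT cells, the highest-ranked H3K27Ac peak of the window was not at the gene start but inside the gene or beyond it. The site inside the gene, 114 kb from the start, lay at chr7:55200053-55202932 in untreated KO cells. H3K27Ac values there were 95.2 and 128, 118 and 98.6, and 19.9 and 88.3 in treated Rescue, KO and WT cells, and 219 and 140, 159 and 110, and 7.66 and 126 in untreated Rescue, KO and WT cells. The ranks were 70, 2, 2859, 3, 6 and 11359, so this was among the strongest H3K27Ac peaks of the genome in treated KO, untreated Rescue and untreated KO cells.

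Both WT lists ranked it lower, in the top 6.48% of the treated list, where it met the IDR limit at 0.0254, and in the top 50.2% of the untreated list. The second replicate value alone would rank 11 in treated WT cells and 5 in untreated WT cells. The treated WT peak was 8233 bases wide, the widest of the window, with summits 4250 bases apart; the untreated WT peak had summits 455 bases apart and an IDR of 0.463. RAD21 had a peak at the site in 6 lists, with ranks of 9234, 10947 and 13831 in treated Rescue, KO and WT cells, and 9968, 1795 and 4332 in untreated Rescue, KO and WT cells. PDS5A had one in 6 lists as well, and 2 of them, in treated and untreated Rescue cells, met the IDR limit. IgG had a weak peak there in 3 lists, none with a value above 7.49.

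The distal site at chr7:55431656-55435442, 347 kb from the start and 157 kb past the gene end, was the other strong H3K27Ac peak. Its values were 143 and 160, 143 and 77.5, and 54 and 17.7 in treated Rescue, KO and WT cells, and 122 and 108, 112 and 75.5, and 98.4 and 72.2 in untreated Rescue, KO and WT cells. The ranks were 7, 11, 4042, 12, 20 and 32, and the treated WT peak alone missed the IDR limit. RAD21 met the limit there in all 6 lists, with ranks of 1426, 214, 2341, 1716, 954 and 329 in the same order. PDS5A met it in 5 lists and missed it in untreated KO cells, at values of 6.17 and 35.2. IgG had a peak there in 5 of 6 lists, all but untreated KO, with values of 20.5 and 9.68 in treated KO and 23 and 8.87 in treated WT cells, and its part in these peaks was not tested. Peaks were matched to no gene but EGFR, so whether this site belongs to LANCL2, the next protein-coding gene, was not tested.

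In treated WT cells the highest-ranked H3K27Ac peak of the window was the one at the gene start, at 308. The other lists had theirs at 7 in treated Rescue, 2 in treated KO, 3 in untreated Rescue, 6 in untreated KO and 32 in untreated WT cells. The place of treated WT cells depended on which value ranked the peaks: by either replicate value alone the best window peak stood in the top 0.0249% or 0.0635% of the list, and by their mean in the top 0.129%, against 0.698% by the lower value. Unequal replicates were more frequent among H3K27Ac peaks of the window than in the lists: in 15 of 384 (3.91%) 1 value exceeded the other more than 5-fold, against 1.41% of all H3K27Ac peaks. The summits in those 15 peaks lay a median of 937 bases apart, against 122 bases in all 384. In RAD21 the shares were 3.7% in the window and 3.71% in the lists, and in PDS5A 1.05% and 2.82%.

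Upstream, a site 180 kb before the start, chr7:54906319-54908106, carried RAD21 with an IDR of 0.05 or less in all 6 lists. Its ranks were 2851, 1392 and 3904 in treated Rescue, KO and WT cells, and 2171, 2961 and 488 in untreated Rescue, KO and WT cells. PDS5A met the limit there in 4 lists and missed it in treated and untreated KO cells. H3K27Ac had only 3 peaks at this site, in treated WT, untreated KO and untreated WT cells, and none met the limit. IgG had a peak there in treated WT cells alone, with values of 4.81 and 8.44, and its part in the cohesin peaks was not tested.

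A second upstream site, 51.3 kb before the start, showed the opposite balance. H3K27Ac had a peak in 6 lists there, with ranks of 1411, 368 and 27640 in treated Rescue, KO and WT cells, and 853, 204 and 264 in untreated Rescue, KO and WT cells. The treated WT peak had values of 52.7 and 6.37, with summits 2770 bases apart, and was the only one to miss the IDR limit. RAD21 met the limit there in treated WT cells alone, and PDS5A in untreated Rescue cells alone. No IgG list had a peak there.

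Inside the gene, 46.9 kb from the start, H3K27Ac met the IDR limit in all 6 lists. Its ranks were 813, 355 and 6586 in treated Rescue, KO and WT cells, and 1116, 351 and 128 in untreated Rescue, KO and WT cells. RAD21 met the limit in 4 lists and PDS5A in 2, and no IgG peak lay there. Among the sites described here, the one at 261 kb, past the gene, alone had cohesin and no H3K27Ac peak in any list. PDS5A ranked 3988, 2862 and 2141 there in treated Rescue, KO and WT cells, and 650, 572 and 3254 in untreated Rescue, KO and WT cells, and RAD21 had peaks in 5 lists, all but untreated WT.

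A ninth site, 167 kb from the start and inside the gene, is singled out after its values were seen, as the highest-ranked RAD21 peak of treated WT cells with no counterpart in treated KO cells. At chr7:55253133-55254624, RAD21 had values of 12.9 and 14.8 in treated Rescue cells, no peak in treated KO cells, 70.9 and 44.9 in treated WT cells, 35.3 and 11.2 in untreated Rescue cells, 13 and 5.09 in untreated KO cells and 30.2 and 5.29 in untreated WT cells. PDS5A had 22.3 and 7.73 in treated Rescue cells, no peak in treated KO cells, 33.9 and 20.6 in treated WT cells, 15.8 and 12.6 in untreated Rescue cells, no peak in untreated KO cells and 6.95 and 7.51 in untreated WT cells. Both antibodies met the IDR limit in treated WT and untreated Rescue cells only. H3K27Ac had a peak there in 6 lists, and only that of treated WT cells, with values of 29.2 and 48.4 and a rank of 730, met the limit. No IgG list had a peak there.

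Within 10 kb of the strong cohesin site at 237 kb, treated WT cells had further small peaks (the close-up of the downstream site). There were 4 H3K27Ac, 4 RAD21 and 5 PDS5A peaks outside the site itself in treated WT cells, against 0 of any of these antibodies in each of the other 5 conditions. The 2 H3K27Ac peaks that met the IDR limit, at chr7:55315391-55316021 and chr7:55317099-55317722, had values of 12.8 and 20.7 and of 12 and 21.5. None of the RAD21 or PDS5A peaks met it, and 0 of the 13 lay on an IgG peak of any list. This cluster was chosen after its values were seen, and it comes from the lists of a single condition, which were among the longest.

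**Figure D3:**
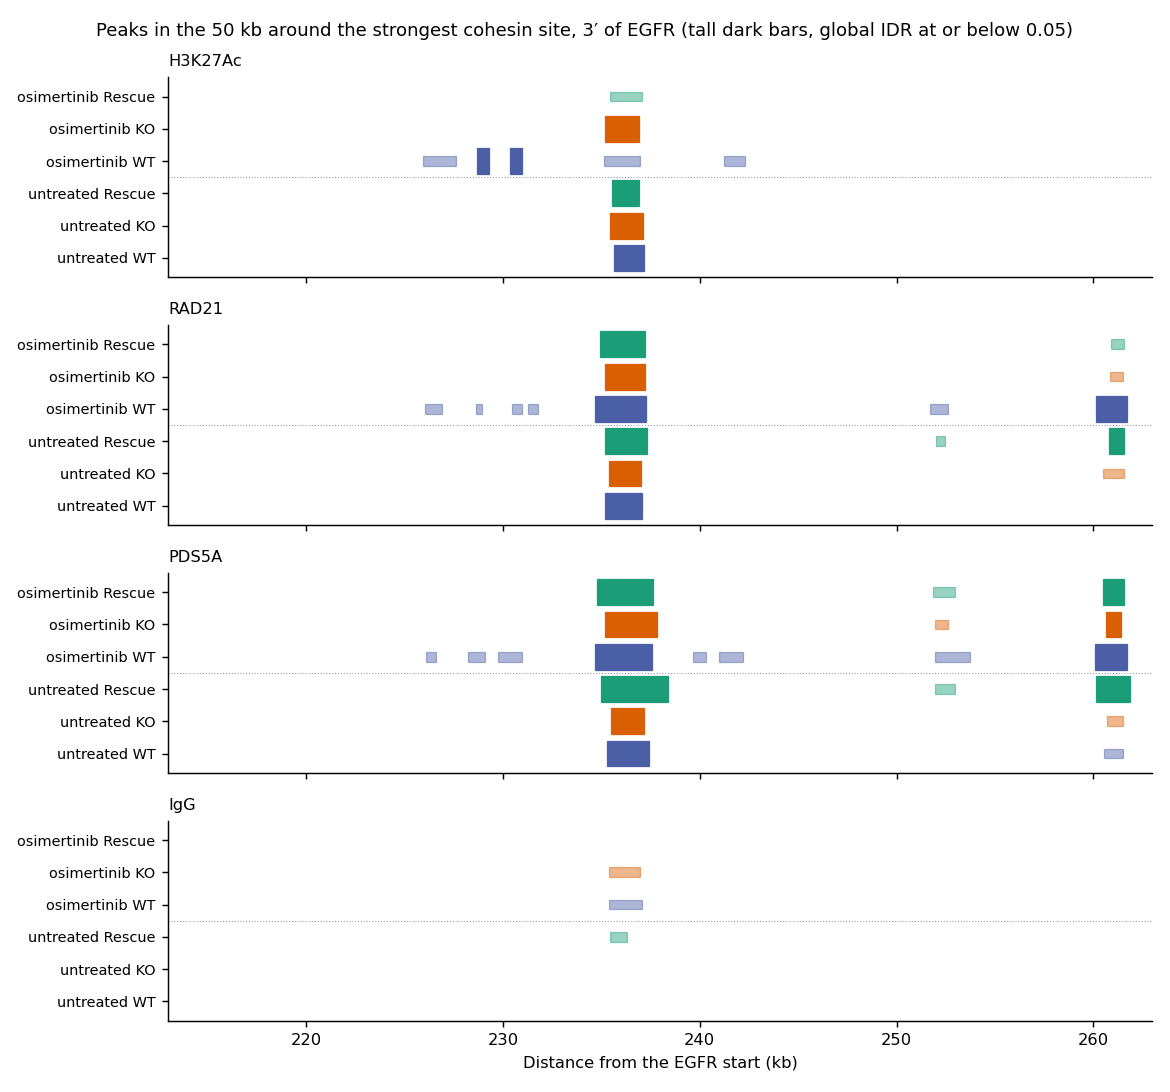
Peaks around the strongest cohesin site, by distance from the gene start (kb, x axis) and list (rows). Tall dark bars have a global IDR of 0.05 or less. The treated WT list is the one with extra peaks within 10 kb of the site at 237 kb for H3K27Ac, RAD21 and PDS5A.

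IgG had peaks of the window in 5 of 6 lists: 2, 6 and 14 in treated Rescue, KO and WT cells, and 3, 0 and 3 in untreated Rescue, KO and WT cells. The treated WT IgG list was also the longest, with 7612 peaks, against 167 to 2703 in the other 5. Of the window's H3K27Ac peaks 13.3% to 24.4% per list lay on an IgG peak of any list, against 16.8% to 31% of whole lists. For RAD21 the range was 26.5% to 81.8% in the window and 20.5% to 41.3% in the lists, and for PDS5A 26.7% to 66.7% and 22.4% to 39.1%. The 0 of 167 peaks in untreated KO cells allows a share of up to 1.8%, taken as 3 counts of the list, and the upper end of its 95% Wilson interval is 2.25%.

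The window was rich in H3K27Ac peaks for its size. Over 5568 windows of 550 kb tiled across the genome, 7 had more H3K27Ac peaks in the 6 lists together, 134 had more RAD21, 231 more PDS5A and 35 more IgG peaks. The median window held 14 H3K27Ac, 15 RAD21, 14 PDS5A and 0 IgG peaks. A peak was counted in a tiled window by its midpoint and in the EGFR window by any overlap. Of the RAD21 peaks of the window, 84.2%, 76.9% and 88.2% lay on an H3K27Ac peak of the same condition in treated Rescue, KO and WT cells, and 70.6%, 85.7% and 100% in untreated Rescue, KO and WT cells. Over whole lists the shares were 65.9%, 68.8%, 58.2%, 65.4%, 61.1% and 62.2%. For RAD21, the 95% Wilson interval of the window's share lay above the list's share in treated WT cells (73.4% to 95.3%) and untreated WT cells (74.1% to 100%). It included the list's share in the other 4 conditions. For PDS5A peaks on H3K27Ac peaks, the interval lay above in treated WT (70.3% to 94.7%, against 56.9%) and untreated WT cells (59.6% to 98.2%, against 57.4%). It also lay above in untreated KO cells (56.5% to 98%, against 52.6%), and included the list's share in the remaining conditions. In reverse, 22.9%, 11.4%, 38.1%, 16%, 24.4% and 19.2% of the window's H3K27Ac peaks lay on a RAD21 peak, against 37.4%, 30.3%, 50.5%, 39.2%, 48.4% and 42.4% of the lists. The 95% Wilson interval of each of these window shares lay below the list's share, most closely in treated WT cells (27.1% to 50.4%). The intervals of these overlap shares cover counting error only. They treat neighbouring peaks of the same locus as independent, so their position against the list's share is a description and not a test. The part of the window's density of H3K27Ac peaks in these overlaps, in either direction, was not tested.

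List lengths differed between conditions, so the number of window peaks was read as a share of its list, with a 95% Wilson interval that covers counting error only. With 1 list per condition no test between conditions was possible, and differences carry a 95% Newcombe interval of the same kind. H3K27Ac shares were 0.155%, 0.202% and 0.143% in treated Rescue, KO and WT cells, and 0.19%, 0.19% and 0.23% in untreated Rescue, KO and WT cells. RAD21 shares were 0.0722%, 0.0735% and 0.0876% in treated Rescue, KO and WT cells, and 0.0689%, 0.0737% and 0.0709% in untreated Rescue, KO and WT cells. PDS5A shares were 0.0626%, 0.0599% and 0.0863% in treated Rescue, KO and WT cells, and 0.0536%, 0.0975% and 0.0695% in untreated Rescue, KO and WT cells. IgG shares were 0.223%, 0.222% and 0.184% in treated Rescue, KO and WT cells, and 0.285%, 0% and 0.284% in untreated Rescue, KO and WT cells.

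**Figure D4:**
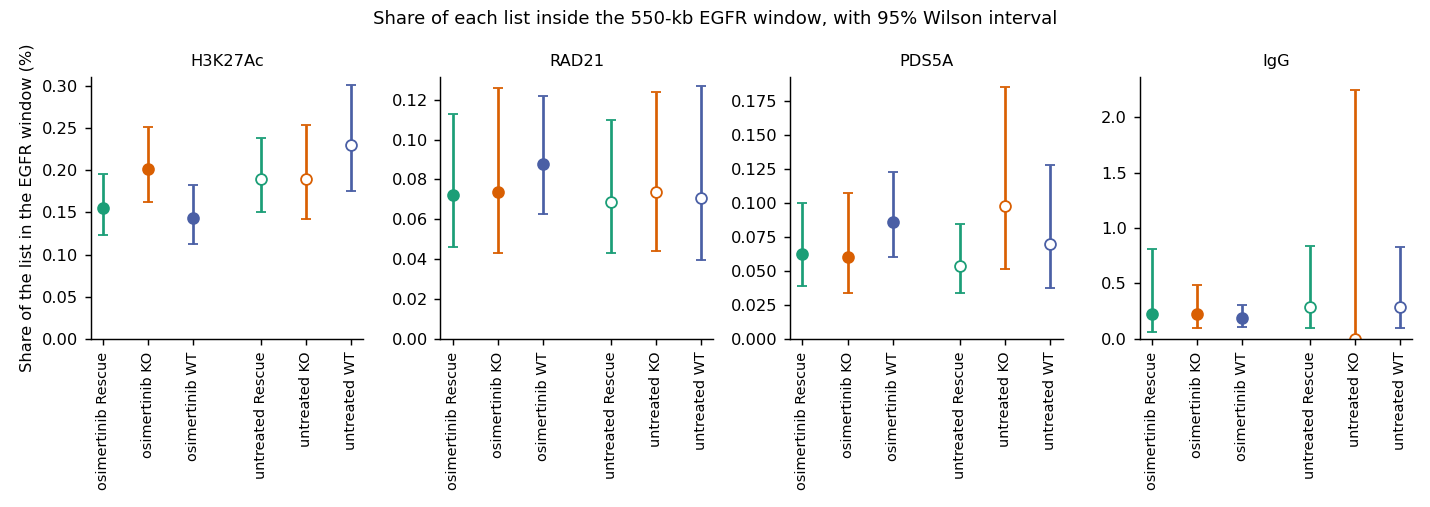
Share of each list (percent, y axis, starting at 0) that fell in the EGFR window, by antibody, with the 95% Wilson interval; filled points are treated and open points untreated lists. H3K27Ac runs from 0.143% in treated WT to 0.23% in untreated WT cells, and the intervals of each antibody, H3K27Ac included, overlap across conditions.

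Treated WT cells had a smaller share of their H3K27Ac peaks at the EGFR locus than untreated WT cells, although more in number. There were 63 window peaks in treated WT cells and 52 in untreated WT cells, in lists of 44124 and 22625 peaks, and the share differed by -0.0871 points (interval -0.165 to -0.0195). With peaks at an IDR of 0.05 or less alone, the difference was -0.0195 points and its interval, -0.189 to 0.109, included 0. In KO cells the share differed by 0.0115 points (-0.0639 to 0.0805), and in Rescue cells by -0.0351 points (-0.093 to 0.0208). The difference of the KO and the WT drug effects was 0.0986 points, with an interval of -0.00266 to 0.203. For RAD21 and PDS5A, all drug differences had intervals that included 0; among peaks that met the IDR limit alone, the RAD21 difference in WT cells was -0.103 points (-0.296 to -0.00105).

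A peak with no overlap of 1 bp or more in the other list is called gained when it lies in the list named first and lost when it lies in the second. In WT cells under osimertinib, 28 of 63 H3K27Ac peaks of the window were gained (44.4%, against 57.7% of the whole list) and 7 of 52 lost (13.5%, against 15.7%). With the IDR limit on both lists, 68.8% of 16 peaks were gained and 44.4% of 9 lost. No share of whole lists was taken at that limit, here or in the comparisons below. Such values therefore have no background, and the 57.7% and 15.7%, which use every deposited peak, do not serve as one. RAD21 had 25 of 34 gained (73.5%, against 63.6%) and 1 of 11 lost (9.09%, against 7.68%). PDS5A had 20 of 30 gained (66.7%, against 62.5%) and 0 of 10 lost (against 7.27%). The gained shares of cohesin thus lay near those of whole lists, in treated lists 2.5 and 2.42 times as long as the untreated ones.

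The highest-ranked gains in WT cells stood in the top 17.4% to 42.1% of their treated lists. For H3K27Ac they were chr7:55224608-55227358, with values of 13.5 and 22.8, and the peak at 229 kb given above. The first of these overlaps an IgG peak of the treated WT list, and the part of that background was not tested. For RAD21 they were the peak at 261 kb, chr7:55346860-55348444, with 23.8 and 21.4, and chr7:55036859-55037880, with 25.7 and 15.6. For PDS5A they were chr7:55094602-55094990, with 18.6 and 13.7, and chr7:55312810-55313356, with 11.2 and 14. All of these but the last met the IDR limit.

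In KO cells under osimertinib, 43 of 79 H3K27Ac peaks were gained (54.4%, against 50.9%) and 4 of 45 lost (8.89%, against 14.9%). With the IDR limit on both lists, 41.2% of 17 peaks were gained and 35.7% of 14 lost, with no whole-list share taken. RAD21 had 4 of 13 gained (30.8%, against 22.7%) and 5 of 14 lost (35.7%, against 28.3%). PDS5A had 3 of 11 gained (27.3%, against 59.1%) and 1 of 9 lost (11.1%, against 18.8%). The top H3K27Ac gains lay at chr7:55249486-55250889, with 17.3 and 14.3, and at chr7:55276247-55277234, just past the gene end, with 12.1 and 16.8. No cohesin gain or loss in KO cells met the IDR limit.

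With the IDR limit on both lists, 31.2% of 16 H3K27Ac peaks were gained in Rescue cells under osimertinib, with no whole-list share taken. Against every deposited peak, 13 of 70 H3K27Ac peaks were gained (18.6%, against 28.4%) and 22 of 75 lost (29.3%, against 21.3%). RAD21 had 4 of 19 gained (21.1%, against 24.5%) and 2 of 17 lost (11.8%, against 19.1%). PDS5A had 1 of 17 gained (5.88%, against 12.6%) and 2 of 18 lost (11.1%, against 28.8%). One of all these peaks met the IDR limit, the H3K27Ac peak at chr7:55090507-55090987, lost under treatment with values of 12.4 and 15.3.

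KO was set against WT in each treatment. In treated cells the KO list had the higher H3K27Ac share, with 79 window peaks in KO cells and 63 in WT cells, a difference of 0.0588 points (0.00249 to 0.117). Among peaks that met the IDR limit alone it was 0.0431 points, with an interval of -0.0801 to 0.177. In untreated cells it differed by -0.0398 points (-0.126 to 0.0444). The RAD21 share differed by -0.0141 points (-0.0603 to 0.0438) in treated and by 0.0028 points (-0.0606 to 0.0617) in untreated cells. The PDS5A share differed by -0.0263 points (-0.0717 to 0.0276) in treated and by 0.028 points (-0.0464 to 0.121) in untreated cells. Among peaks that met the IDR limit alone, 5 of these differences had the opposite sign, each with an interval that included 0: 0.0785 points for H3K27Ac (-0.11 to 0.27), -0.0508 for RAD21 (-0.252 to 0.108) and -0.061 for PDS5A (-0.403 to 0.461) in untreated cells, and 0.0543 for RAD21 (-0.0284 to 0.21) and 0.0262 for PDS5A (-0.0616 to 0.183) in treated cells.

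In treated cells, 1 of 13 RAD21 peaks of KO cells was gained (7.69%, against 7.07%) and 23 of 34 of WT cells lost (67.6%, against 58.6%). PDS5A had 0 of 11 gained (against 9.23%) and 18 of 30 lost (60%, against 53.2%), and H3K27Ac 22 of 79 gained (27.8%, against 33%) and 15 of 63 lost (23.8%, against 41.7%). With the IDR limit on both lists, 52.9% of 17 H3K27Ac peaks were gained and 62.5% of 16 lost, with no whole-list share taken. The strongest cohesin losses were those at 167 kb described above, followed for RAD21 by chr7:55036859-55037880 and for PDS5A by chr7:55052944-55054066, with 18.8 and 19.6. The last of these lies on an IgG peak of the treated WT list.

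In untreated cells, H3K27Ac had 11 of 45 peaks gained in KO cells (24.4%, against 28.2%) and 21 of 52 of WT cells lost (40.4%, against 26.5%). With the IDR limit on both lists, 50% of 14 peaks were gained and 22.2% of 9 lost, with no whole-list share taken. RAD21 had 6 of 14 gained (42.9%, against 35%) and 3 of 11 lost (27.3%, against 21.1%). PDS5A had 1 of 9 gained (11.1%, against 25.7%) and 2 of 10 lost (20%, against 52%). Among these only an H3K27Ac gain met the IDR limit, chr7:55374772-55375944, 289 kb from the start, with 13.1 and 15.5.

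**Figure D5:**
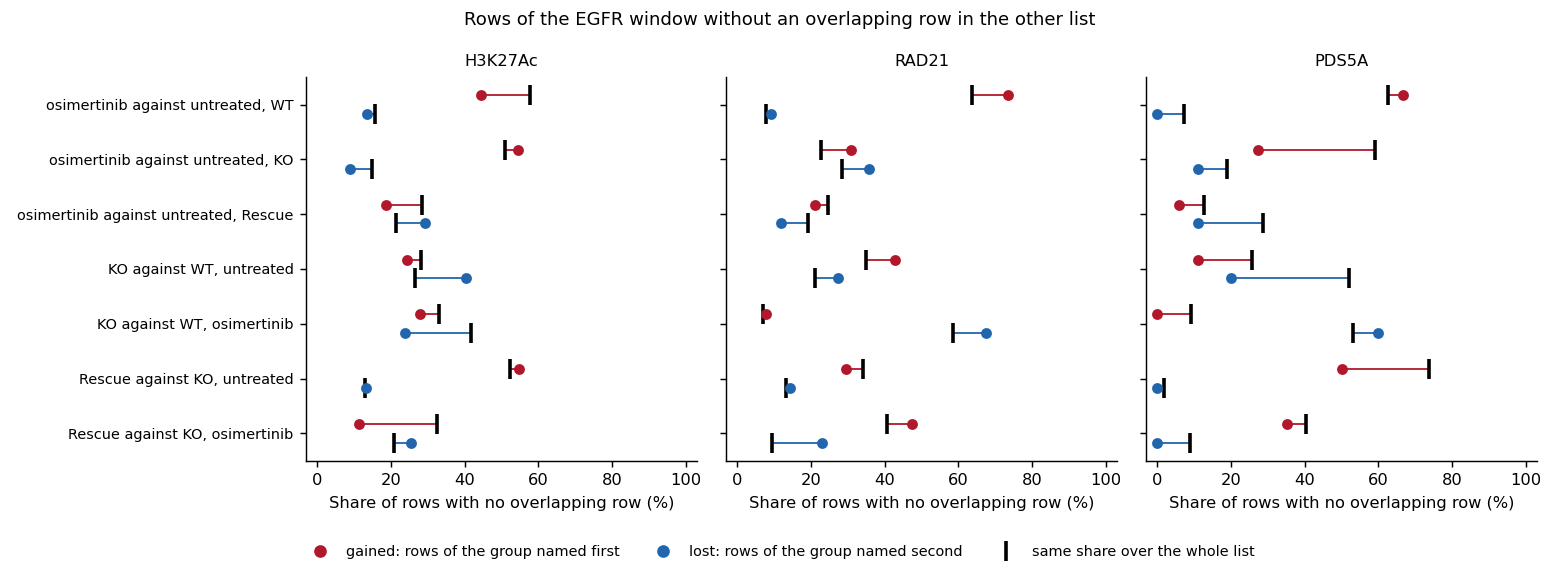
Share of the window's peaks (percent, x axis) with no overlapping peak in the other list of each comparison, gained in red and lost in blue, for H3K27Ac, RAD21 and PDS5A. Black ticks give the same share over the whole list; for H3K27Ac in treated WT against untreated WT cells it was 57.7%, above the window's 44.4%.

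Rescue was set against KO, the comparison in which METTL7A is put back. H3K27Ac shares differed by -0.0468 points (-0.106 to 0.0101) in treated and by -0.000176 points (-0.0749 to 0.0677) in untreated cells. RAD21 shares differed by -0.0013 points (-0.0596 to 0.0495) in treated and by -0.00479 points (-0.061 to 0.0462) in untreated cells. PDS5A shares differed by 0.00263 points (-0.0503 to 0.0486) in treated and by -0.0439 points (-0.134 to 0.0118) in untreated cells. All 6 intervals include 0, and they do not show that the lines were alike. Among peaks that met the IDR limit alone, the H3K27Ac difference in untreated cells was -0.137 points (-0.315 to -0.0121).

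In treated cells, 8 of 70 H3K27Ac peaks of Rescue cells were gained (11.4%, against 32.6%) and 20 of 79 of KO cells lost (25.3%, against 20.8%). With the IDR limit on both lists, 25% of 16 were gained, with no whole-list share taken. RAD21 had 9 of 19 gained (47.4%, against 40.5%) and 3 of 13 lost (23.1%, against 9.45%), and PDS5A 6 of 17 gained (35.3%, against 40.3%) and 0 of 11 lost (against 8.78%). The RAD21 gains included the site at 167 kb, with 12.9 and 14.8, and chr7:55029137-55029849, with 21.2 and 12.6, the one that met the IDR limit. In untreated cells, 41 of 75 H3K27Ac peaks were gained (54.7%, against 52.3%) and 6 of 45 lost (13.3%, against 12.9%). With the IDR limit on both lists, 35.7% of 14 were lost, with no whole-list share taken. RAD21 had 5 of 17 gained (29.4%, against 34.1%) and 2 of 14 lost (14.3%, against 13.2%). PDS5A had 9 of 18 gained (50%, against 73.6%) and 0 of 9 lost (against 1.92%), with chr7:54945287-54945958 at 24.9 and 18.6 and the site at 167 kb at 15.8 and 12.6 as its highest-ranked gains.

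Some peaks of treated WT cells had no counterpart in any of the other 5 lists of the antibody. They were 9 of 63 H3K27Ac peaks (14.3%, against 28.6% of the whole list), 13 of 34 RAD21 peaks (38.2%, against 32%) and 14 of 30 PDS5A peaks (46.7%, against 22.3%). None of them lay on an IgG peak, and 2, 1 and 0 met the IDR limit. Those lists share no condition with a replicate list, so the part of the treated WT libraries themselves was not tested.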

How the data were processed

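CUT&RUN was run on PC9 cells, per the labels. The submitters' processing notes name MACS2 2.2.7.1, Bowtie2 2.4.2, SAMtools 1.16, deepTools 3.5.1, bedtools 2.30, Trimmomatic and FastQC, without their roles, and the build GRCh37; the peak threshold, control and version of the IDR program are not given in the sources used here. The deposited values are a −log10 p from either replicate, never below 3, and the −log10 of the global IDR; start, end and summit columns are positions. Which labelled replicate gave which value is not stated, and no file has a header. Depth is unknown, so −log10 p values were used only to rank peaks within a list. The p-value of a peak is the authors' own value.

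Peaks on chromosomes 1 to 22, X and Y were kept; 2 to 9 peaks per list on other sequences were left out of list lengths. Samples were grouped by title, and 7 comparisons were made for 4 antibodies, with no test, by shares with Wilson and Newcombe intervals and by overlap of 1 bp or more. An IgG peak means any deposited IgG peak. Named were the best peak of each list, peaks at the gene start, regions in all 6 lists or with an IDR of 0.05 or less (the remainder as counts), the best 2 gained and lost peaks per comparison, and IgG peaks; the site at 167 kb and the cluster around 237 kb were added after values were seen. Members and rules were chosen with earlier results of these data known. Alternatives were IDR limits of 0.05 and 0.01, the gene body alone, covered length, removal of peaks that lie on IgG peaks, an overlap of 50%, the bounds or values of each replicate and the mean of both. Tools were Python 3.11.15 with scipy 1.17.1, matplotlib 3.10.9, pandas 2.3.3 and numpy 2.4.6. The overlap search, tested on simulated data, gave 0 mismatches against a direct search of 1000 regions.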

Additional observations from a re-analysis of the deposited data

How the results depend on the processing

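With 1 list per condition, these values show how far a choice of peaks moves them, not how samples vary; depth is unknown, and the cause of each move was not tested. No paired analysis was possible because each comparison sets 1 joined list against another, with no test and no fit. The shares of the window kept their direction, or moved by less than their intervals, in 28 of 28 comparisons by covered length, by the gene body alone and by the bounds of either replicate, and in 21 of 21 without peaks on an IgG peak. With an IDR limit of 0.05, the differences that moved were, for treated against untreated WT cells, -0.0195 points (H3K27Ac), -0.103 (RAD21, -0.296 to -0.00105) and -0.0992 (PDS5A); for KO against WT, 0.0785 (H3K27Ac) and -0.061 (PDS5A) in untreated cells and 0.0543 (RAD21) in treated cells; and for Rescue against KO, -0.137 (H3K27Ac, -0.315 to -0.0121) in untreated cells. With a limit of 0.01 they were -0.181 (RAD21) and -0.207 (PDS5A) in treated against untreated WT cells and -0.115 (H3K27Ac) in treated against untreated KO cells. For KO against WT they were 0.181 (H3K27Ac) and -0.048 (PDS5A) in untreated cells, and 0.161 (H3K27Ac), 0.142 (RAD21) and 0.0886 (PDS5A) in treated cells. For Rescue against KO they were -0.261 (H3K27Ac), -0.0936 (RAD21) and -0.166 (PDS5A) in untreated cells, and -0.169 (H3K27Ac), -0.131 (RAD21) and -0.115 (PDS5A) in treated cells. The gained and lost shares kept within their intervals in 42 of 42 cases with an overlap of 50% of the shorter peak and with the bounds of either replicate. With the IDR limit of 0.05 on both lists 23 of 42 moved. Those shares rest on 1 to 17 peaks each, and no share of whole lists was taken at that limit. Treated against untreated, H3K27Ac gained and lost shares were 68.8% of 16 and 44.4% of 9 peaks in WT cells. In KO cells they were 41.2% of 17 and 35.7% of 14, and 31.2% of 16 were gained in Rescue cells. RAD21 had 0% of 5 gained in KO and 37.5% of 8 lost in Rescue cells. PDS5A had 75% of 4 gained and 0% of 1 lost in KO cells, and 33.3% of 9 lost in Rescue cells. KO against WT, untreated shares gained and lost were 50% of 14 and 22.2% of 9 peaks for H3K27Ac. They were 0% of 6 and 0% of 6 for RAD21, and 0% of 1 and 66.7% of 3 for PDS5A. Treated ones were 52.9% of 17 and 62.5% of 16 (H3K27Ac), with 40% of 5 gained (RAD21). Rescue against KO, 35.7% of 14 H3K27Ac peaks were lost and 88.9% of 9 PDS5A peaks gained in untreated cells. In treated cells, 25% of 16 H3K27Ac peaks were gained and 0% of 5 RAD21 peaks lost. By the mean of both replicate values, 9 of 23 best peaks of the window moved. They stood in the top 0.129% (H3K27Ac, treated WT), 0.0127% (H3K27Ac, untreated KO), 0.266%, 0.407% and 0.386% (RAD21 in treated Rescue, treated WT and untreated WT), and 0.0515%, 0.049%, 0.104% and 0.208% (PDS5A in treated Rescue, KO and WT and untreated WT). With 1 replicate value left out, the best H3K27Ac peak stood in the top 0.0177% to 0.0287%, 0.00255% to 0.00765% and 0.0249% to 0.0635% of the treated Rescue, KO and WT lists, and 0.00253% to 0.0127%, 0.0127% to 0.0253% and 0.0221% to 0.0796% of the untreated ones. RAD21 ranges were 0.198% to 0.505%, 0.0961% to 0.204% and 0.332% to 0.713% treated, and 0.0608% to 0.203%, 0.205% to 0.316% and 0.348% to 0.953% untreated. PDS5A ranges were 0.0331% to 0.114%, 0.0327% to 0.125% and 0.0633% to 0.279% treated, and 0.0298% to 0.0476%, 0.162% to 0.271% and 0.16% to 0.271% untreated. IgG ranges were 7.37% to 16.6%, 0.666% to 4.85% and 0.552% to 10.7% treated, and 5.71% to 9.99% (Rescue) and 3.5% to 26.6% (WT) untreated.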

Other observations

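Among 2690 windows of 550 kb with 48 or more peaks, those whose share of the 18 H3K27Ac, RAD21 and PDS5A lists was most like that of the EGFR window lay at chr2:9350001-9900000, chr1:94050001-94600000 and chr9:97350001-97900000 on GRCh37. Pearson's r over the 18 lists was 0.96, 0.955 and 0.954. The 18 lists come in 3 antibodies and are not independent points, so these values are a description only. In the first of them the median share was 0.117% of the H3K27Ac, 0.043% of the RAD21 and 0.0354% of the PDS5A lists.

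In the 15 H3K27Ac peaks of the window with replicate values more than 5-fold apart, the gap between summits ran from 193 to 2896 bases, and 0 of the 15 met the IDR limit. Over all 214361 H3K27Ac peaks the median gap was 139 bases, and 802 bases in those with values more than 5-fold apart. In the 4 RAD21 peaks of the window of this kind the gap ran from 99 to 743 bases, and 1 of the 4 met the IDR limit.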
